A study of Mus musculus with 10 samples.

Results

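Semaphorins, ephrins, Slits and netrins are guidance cues: secreted or cell-bound ligands that steer growing axons, migrating cells and sprouting vessels. Genes of these ligands and of their plexin, Eph, Robo and Unc5 receptors were taken from the protein-coding rows of the lung table by their symbols, and 66 matched. Of these, 60 had a mean of at least 0.1 FPKM (fragments per kilobase of gene, scaled to library size) over the 10 libraries and were described, out of 54532 genes in the table and 20448 genes of any type that reached the same level. The 60 comprise 20 semaphorins, 9 plexins, 8 ephrins, 10 Eph receptors, 2 Slits, 3 Robo receptors, 3 netrins and 5 genes with an Unc5 symbol. One of the last, Unc5cl, resembles the netrin receptors in name and part of its sequence but is not known as one. The 6 genes left out had means of 0.0023 FPKM (Epha6), 0.0026 (Epha10), 0.0087 (Epha5), 0.0255 (Slit1), 0.0266 (Epha8) and 0.0387 (Robo3). Just inside the limit lay Plxnb3 at 0.116 FPKM, which rested on 3 to 25 reads per library, and Ephb2 at 0.201.

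The libraries hold whole-lung RNA of wild-type mice at postnatal day 30 (P30). The IPF group (increased pulmonary flow, n = 5) had its abdominal aorta punctured through into the inferior vena cava at P7 under isoflurane, and this aortocaval fistula sends more blood through the right heart and the lungs. The sham group (n = 5) had the same anaesthesia and laparotomy without the puncture. The methods name C57BL/6J pups of both sexes, and the comparison was set up to ask how the lung responds to the extra flow. In these libraries, however, Xist was high only in the IPF group and Y-linked genes were present only in the sham group. Operation and sex therefore cannot be told apart in any difference below. The labels do not say whether each library came from 1 mouse, so p-values measure the spread between these libraries. In whole lung, fewer cells of a type and less RNA per cell cannot be told apart.

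Semaphorins signal through plexins, and the secreted class 3 members mostly need neuropilins as co-receptors. An exception is Sema3e, which binds Plxnd1 directly. Plexins change the cytoskeleton and adhesion through small GTPases, the Rnd proteins among them. Ephrins and Ephs are both held at the cell surface and signal in both directions between touching cells, and Efnb2 and Ephb4 mark arteries and veins. Slits act through Robo receptors, with Robo4 specific to endothelium, and netrins act through Dcc, neogenin and the Unc5 receptors, of which Unc5b is vascular. In the lung these genes are known for roles in vessel patterning, airway branching and alveolar formation.

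Of the 60 guidance genes, 5 differed between the groups at an adjusted p under 0.05 (limma on log2(FPKM + 0.1), Benjamini-Hochberg (BH) adjustment over 20448 genes). The semaphorin Sema7a, the plexin Plxna2 and the receptor Epha1 were lower in the IPF group, while the semaphorin Sema4d and the plexin Plxnd1 were higher. Promoters of the 4 of these genes that have a single window in the RefSeq promoter table (GRCm38.p6) are printed to show what lies before each start. They are the 150 bases ahead of the annotated start, 5′ to 3′ on the strand of the gene, and the capitals mark GGGCGG (a GC box) or CCACNCCC (a CACCC box) on either strand.
Epha1, chr6:42373269-42373418, minus strand: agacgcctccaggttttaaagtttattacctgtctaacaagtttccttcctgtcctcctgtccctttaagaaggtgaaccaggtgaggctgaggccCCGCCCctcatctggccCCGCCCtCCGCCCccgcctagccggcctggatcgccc
Plxna2, chr1:194619679-194619828, plus strand: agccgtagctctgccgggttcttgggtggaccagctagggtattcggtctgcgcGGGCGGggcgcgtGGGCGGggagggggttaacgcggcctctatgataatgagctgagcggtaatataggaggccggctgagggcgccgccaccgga
Sema7a, chr9:57939962-57940111, plus strand: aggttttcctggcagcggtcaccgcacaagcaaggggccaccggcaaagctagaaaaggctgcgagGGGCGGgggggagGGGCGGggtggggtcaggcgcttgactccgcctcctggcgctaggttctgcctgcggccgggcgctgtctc
Plxnd1, chr6:115995006-115995155, minus strand: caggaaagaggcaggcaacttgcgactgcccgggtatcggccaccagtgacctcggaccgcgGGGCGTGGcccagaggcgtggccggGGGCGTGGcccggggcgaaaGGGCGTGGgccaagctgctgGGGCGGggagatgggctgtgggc
The Plxnd1 promoter held 3 CACCC boxes, a number or more reached in 0.601% of the windows of genes tested and 0.496% of all 32851 RefSeq windows. Those of Epha1, Plxna2 and Sema7a held GC boxes but no CACCC box. The windows of Sema4d, the other gene called higher, held no CACCC box either. Windows were available for 52 of the 60 genes (68 windows, 3 of them for Sema4d), and the 250 bases before the start were searched on both strands. GGGCGG was found in 67.6% of the guidance windows and in 52.5% of the windows of all genes tested, and CCACNCCC in 32.4% and 20.2%. These 2 motifs were added after the data had been seen. The E-box of the clock factors, CACGTG, was found in 3 of 68 windows (4.41%, against 7.55% of the windows of genes tested), the D-box TTATGTAA in 0 of 68 (0.582%) and an interferon response element in 2 of 68 (2.94%, against 2.83%). None of these 3 was found in the 7 windows of the 5 genes that differed. A match is a description of the letters and not a binding site.

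The guidance genes spanned a wide range of levels in the P30 lung. Sema3c had the highest mean at 93.4 FPKM, followed by Sema3g at 77.9, Efnb2 at 58.0, Ephb4 at 55.2, Efnb1 at 51.7 and Sema3f at 51.6. In all, 12 genes had a mean of 30 FPKM or more, 10 lay between 10 and 30, 27 between 1 and 10, and 11 below 1. The 60 genes summed to 832 to 997 FPKM in the IPF libraries and 886 to 971 in the sham libraries, so the totals overlapped.

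**Figure D1:**
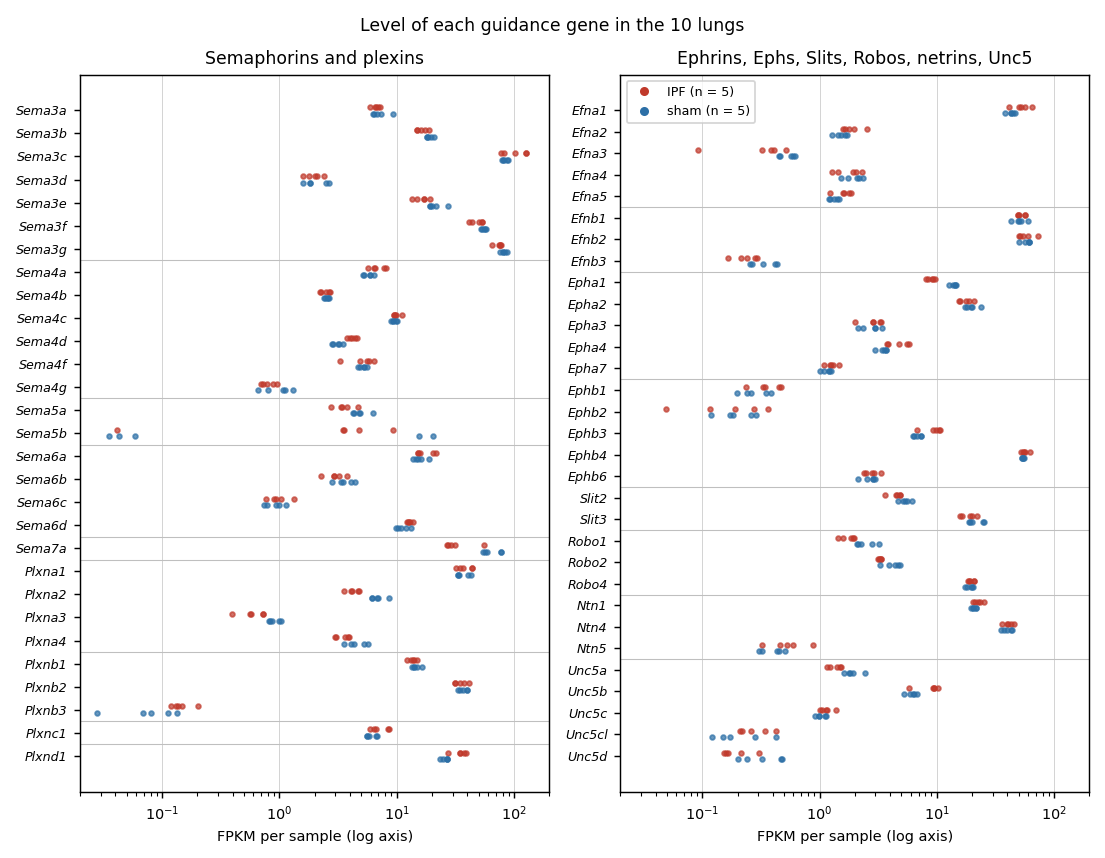
FPKM of each of the 60 guidance genes (rows, grouped by family) in every library on a log axis, with IPF in red and sham in blue, 5 points each. Points of the groups lie on each other for most genes, and Sema5b alone spreads from 0.0352 to 20.3 FPKM.

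Fold changes were spread evenly around 0. The estimate was positive for 30 genes and negative for 30, with a median log2 fold change (IPF minus sham) of 0.0086 beside 0.0016 over all genes tested. The 5 genes called are 8.33% of the 60, where 5.85% of all genes tested were called. By direction, 2 guidance genes were higher (3.33%, with 3.71% of all genes) and 3 were lower (5%, with 2.14% of all genes). None also passed an absolute log2 fold change of 1 in limma, which 1.14% of all genes did, although Sema7a came close at -0.98. Without adjustment, limma p was under 0.05 for 22 guidance genes (36.7%), 8 with a higher and 14 with a lower estimate, beside 19.5% of all genes tested. In 8 guidance genes (13.3%) the libraries of the groups did not overlap, as in 7.29% of all genes.

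**Figure D2:**
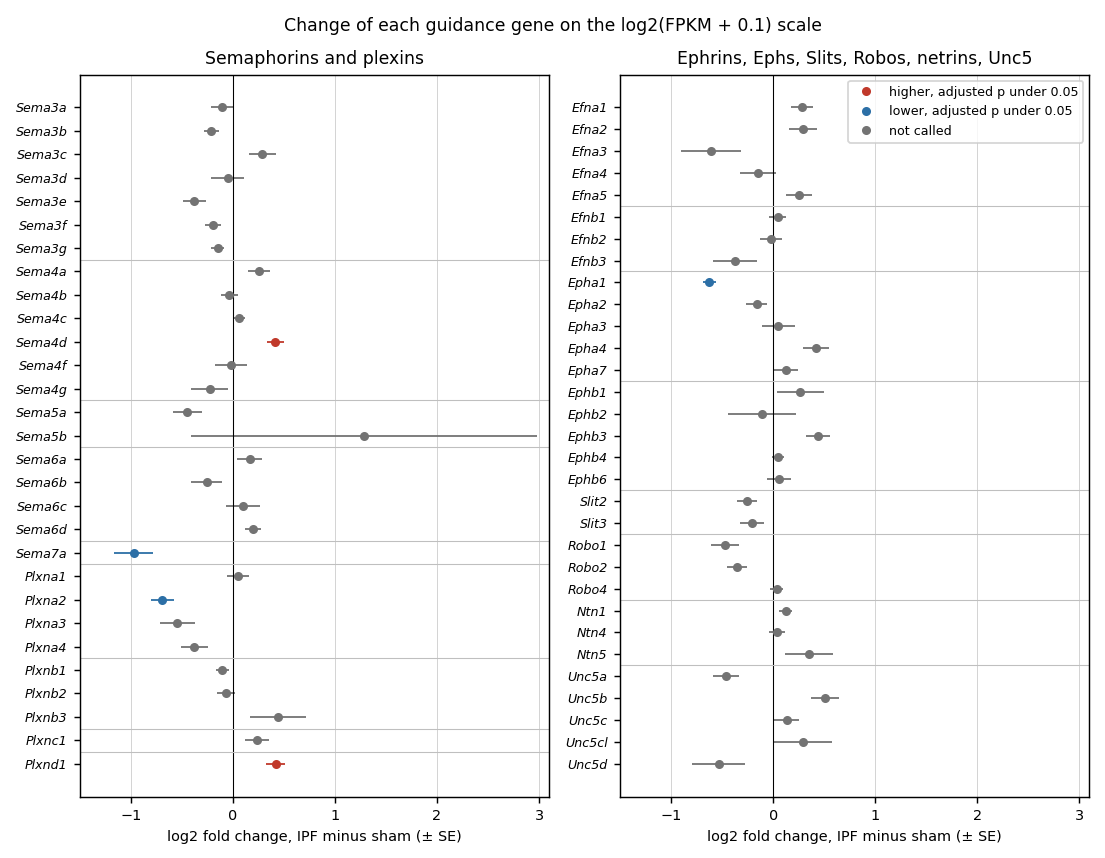
Log2 fold change (IPF minus sham) of the guidance genes by family with its standard error, from limma on log2(FPKM + 0.1). The 5 genes with an adjusted p under 0.05 are Sema7a, Plxna2 and Epha1 to the left of 0 and Plxnd1 and Sema4d to the right, and Sema5b has by far the widest error (1.70).

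Among the ligands, 1 was called lower, the membrane-anchored semaphorin Sema7a. Sema7a (ENSMUSG00000038264, GRCm38 chr9:57940112-57962865) is attached to the cell surface by a lipid anchor and is known to act on Plxnc1 and on integrins. Its level was 29.1, 27.4, 27.0, 31.5 and 55.0 FPKM in IPF libraries 1 to 5 and 77.6, 54.9, 78.3, 56.4 and 58.8 FPKM in sham libraries 1 to 5. Libraries 1 to 4 of the IPF group lay below every sham library, whereas IPF library 5 lay within the sham range. The means were 34.0 ± 11.9 and 65.2 ± 11.7 FPKM (n = 5 each, SD), a log2 fold change of -0.98 (SE 0.19, 0.508-fold, limma BH-adjusted p = 0.0135). An exact two-sided permutation test over the 10 libraries gave p = 0.0159, where the smallest p this design allows is 0.00794. Without IPF library 5 the log2 fold change was -1.16 (limma BH-adjusted p = 0.000424). Its receptor Plxnc1 stood at 7.22 ± 1.22 and 6.08 ± 0.597 FPKM (n = 5 each, SD) and did not pass the test (log2 fold change 0.24, limma BH-adjusted p = 0.285).

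Sema4d rose in the IPF group. Sema4d (ENSMUSG00000021451, chr13:51685529-51793747) is a transmembrane semaphorin of lymphocytes and other cells that binds Plxnb1 and Cd72. The IPF libraries held 4.38, 3.80, 4.59, 4.15 and 4.00 FPKM and the sham libraries 3.25, 3.50, 3.14, 2.82 and 2.89 FPKM, so the groups did not overlap. The means were 4.18 ± 0.311 and 3.12 ± 0.276 FPKM (n = 5 each, SD), a log2 fold change of 0.41 (SE 0.08, limma BH-adjusted p = 0.0153; exact permutation p = 0.00794). Without the 3 libraries that stood apart (sham 1, IPF 3 and IPF 5) its limma BH-adjusted p was 0.0613. A list of 5 B-cell genes, among them Cd79a, Cd79b, Ms4a1 and Pax5, differed in the same direction between the groups. Limma called 5 of 5 higher, and none was at 0. Their summed level was 31.7 to 47.8 FPKM in the IPF group and 17.1 to 28.0 in the sham group. Of 5 T-cell genes (Cd3e, Cd3d, Cd3g, Trac and Cd8a, none at 0), 0 were called by limma, 2 had an unadjusted p under 0.05 and 0 were called with voom, with a median log2 fold change of 0.42 and sums of 11.6 to 15.5 FPKM in the IPF group and 6.86 to 12.1 in the sham group. The part of B cells and T cells in the Sema4d difference was not tested. Its plexin receptors Plxnb1 and Plxnb2 had log2 fold changes of -0.10 and -0.07 (limma BH-adjusted p = 0.437 and 0.726).

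The other class 4 members included Sema4c, the most abundant of the class at 9.92 ± 0.650 and 9.51 ± 0.445 FPKM (n = 5 each, SD), with a log2 fold change of 0.06 (limma BH-adjusted p = 0.635). Across the 6 class 4 genes, 1 was called and 3 estimates were positive.

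The class 3 semaphorins, secreted cues that mostly act through neuropilins on endothelium, had 6 of 7 negative estimates and a median of -0.15 (log2), but 0 of 7 were called by limma at an adjusted p under 0.05. Unadjusted, 4 of the 7 had limma p under 0.05, all with a lower estimate in the IPF group, beside 19.5% of all genes tested in either direction. Limma voom on the recovered reads called 1, Sema3e. Sema3e, the ligand of Plxnd1 and a repellent of sprouting vessels, stood at 19.3, 15.0, 17.2, 13.6 and 17.2 FPKM in the IPF libraries and 21.5, 19.4, 19.2, 19.9 and 27.6 FPKM in the sham libraries. IPF library 1 alone reached into the sham range. The log2 fold change was -0.38 (SE 0.12), with a limma BH-adjusted p of 0.0881, and 0.0399 with voom on the recovered reads. Sema3g and Sema3f, both known in endothelial and lymphatic biology, had log2 fold changes of -0.15 (73.8 ± 4.66 and 81.9 ± 4.15 FPKM, n = 5 each, SD) and -0.20 (48.1 ± 5.44 and 55.0 ± 2.23 FPKM), with limma BH-adjusted p of 0.197 and 0.176. Sema3c, known in branching airways and the outflow tract of the heart, was the exception in sign. It stood at 102, 83.0, 78.3, 128 and 127 FPKM in the IPF libraries and 78.9 to 88.6 FPKM in the sham libraries, so 3 IPF libraries lay above all sham libraries and 1 below (log2 fold change 0.29, limma BH-adjusted p = 0.271). Sema3a, the classic repellent of axons, differed by -0.11 (limma BH-adjusted p = 0.626).

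The class 5 genes have a transmembrane part and thrombospondin repeats outside the cell. Sema5b had the most variable level of all guidance genes: 0.0415, 3.55, 4.78, 3.49 and 9.27 FPKM in IPF libraries 1 to 5 and 0.0428, 15.6, 0.0352, 0.0594 and 20.3 FPKM in sham libraries 1 to 5. Thus 4 libraries (IPF 1 and sham 1, 3 and 4) held 4 to 7 reads and the other 6 held 419 to 2193 reads, in both groups. The neighbouring genes on chromosome 16 showed no such split, with Pdia5 at 8.93 to 12.8 FPKM and Dirc2 at 10.2 to 13.4. The SD of log2(FPKM + 0.1) over the 10 libraries was 3.06, where the median over 12068 coding genes with a mean of at least 1 FPKM was 0.167 and only 2 genes had a larger SD. Between the groups the log2 fold change was 1.29 with a 95% confidence interval from -2.44 to 5.01 (limma BH-adjusted p = 0.735), and it was -0.40 without the 3 libraries that stood apart. The mean level was lower in the IPF group, at 4.23 ± 3.33 and 7.21 ± 9.95 FPKM (n = 5 each, SD), although the estimate over all libraries was positive. Sema5a, named here after its values were seen, did not follow this split and stood at 3.60 ± 0.716 and 4.92 ± 0.811 FPKM (n = 5 each, SD; log2 fold change -0.45, limma BH-adjusted p = 0.0995), and voom called it lower.

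**Figure D3:**
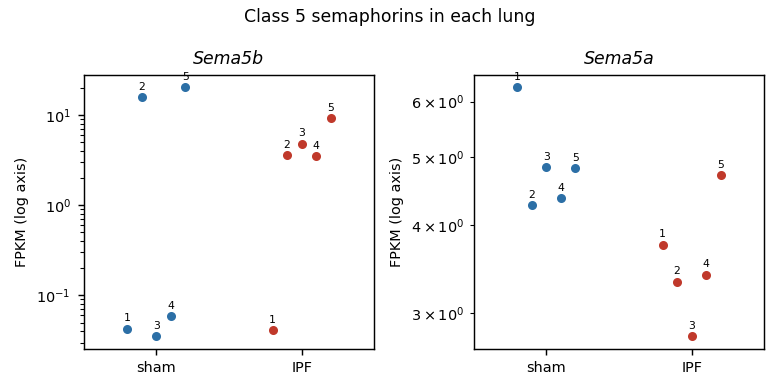
FPKM of Sema5b (left) and Sema5a (right) in each library on log axes, with the replicate number above each point. Sema5b lies either below 0.06 FPKM (IPF 1, sham 1, 3 and 4) or above 3 FPKM, and Sema5a shows no such gap.

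Class 6 semaphorins, transmembrane ligands of A-type plexins, had 0 of 4 genes called (1 at an unadjusted limma p under 0.05, 0 with voom). The most abundant, Sema6a, stood at 17.7 ± 3.14 and 15.7 ± 1.98 FPKM (n = 5 each, SD; log2 fold change 0.16, limma BH-adjusted p = 0.508).

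Of the 9 plexins, the semaphorin receptors, 1 rose and 1 fell. Plxnd1 (ENSMUSG00000030123, chr6:115954811-115995005), the endothelial receptor of Sema3e, was at 35.0, 37.8, 38.9, 34.5 and 27.3 FPKM in the IPF libraries and 27.0, 24.9, 23.3, 27.0 and 26.8 FPKM in the sham libraries. Every IPF library lay above every sham library, but IPF library 5 only just so. The means were 34.7 ± 4.54 and 25.8 ± 1.65 FPKM (n = 5 each, SD), a log2 fold change of 0.42 (SE 0.09, 1.34-fold, limma BH-adjusted p = 0.0224; exact permutation p = 0.00794). This call was close to the threshold and was lost without any one of IPF libraries 1, 2 and 4 and sham libraries 2 and 3 (limma BH-adjusted p = 0.0568 to 0.0634), after quantile normalization (0.0600), without a variance trend (0.0510) and with the replicate number as a block (0.0640). Of the endothelial genes Pecam1, Cdh5, Tie1, Erg, Cldn5 and Egfl7, 1 of 6 was called higher (Cldn5), none was at 0, and their sum was 1091 to 1223 FPKM in the IPF group and 931 to 1014 in the sham group. Without Cldn5 the sums overlapped, at 657 to 776 and 643 to 694 FPKM. Of 5 arterial genes (Gja5, Gja4, Bmx, Dkk2 and Sox17), 2 were called higher and none was at 0. Their sum was 93.4 to 106 FPKM in IPF libraries 1 to 4, 74.5 in IPF library 5 and 66.4 to 79.4 in the sham libraries. Of other vascular lists, 1 of 5 general capillary genes (Aplnr, log2 fold change 0.82) and 1 of 4 venous genes (Nr2f2, 0.37) were called higher and 1 of 5 pericyte genes (Cspg4, -0.43) lower. Estimates went the other way for the venous Slc6a2 (-0.53, limma BH-adjusted p = 0.0928) and the pericyte gene Cox4i2 (0.27, 0.174). Venous sums overlapped, at 79.6 to 102 FPKM (IPF) and 83.1 to 102 (sham). Pericyte sums also did, at 142 to 179 and 135 to 155. Aplnr was at 26.8 FPKM in IPF library 5, with means of 39.5 ± 10.0 FPKM in the IPF group and 21.7 ± 1.76 in the sham group (n = 5 each, SD). The part of these lists in the Plxnd1 difference was not tested.

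Plxna2 (ENSMUSG00000026640, chr1:194618218-194816869), a receptor for class 6 semaphorins and, with neuropilins, for class 3, fell. Its level was 4.15, 3.54, 4.05, 4.75 and 4.68 FPKM in the IPF libraries and 8.65, 6.17, 6.15, 6.74 and 6.91 FPKM in the sham libraries, with no overlap. The log2 fold change was -0.69 (SE 0.11, 0.618-fold, limma BH-adjusted p = 0.0049; exact permutation p = 0.00794; means 4.23 ± 0.498 and 6.92 ± 1.02 FPKM, n = 5 each, SD). The other A plexins did not pass the limma test, although voom on the recovered reads called Plxna3 lower. Plxna1, the most abundant, differed by 0.05 (38.2 ± 5.32 and 37.0 ± 4.59 FPKM, limma BH-adjusted p = 0.862). The X-linked Plxna3, named after its values were seen, was lower in every IPF library than in any sham library, at 0.395 to 0.732 and 0.815 to 1.03 FPKM (log2 fold change -0.55, limma BH-adjusted p = 0.0949). The B plexins had no call by limma (0 of 3, and 0 at an unadjusted p under 0.05 or with voom).

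Of the 10 Eph receptors, tyrosine kinases that read ephrins on neighbouring cells, 1 was called. Epha1 (ENSMUSG00000029859, chr6:42358487-42373268), an epithelial Eph receptor, had the smallest adjusted p of all guidance genes. The IPF libraries held 9.72, 9.18, 8.12, 9.29 and 8.49 FPKM and the sham libraries 14.3, 12.7, 14.5, 13.7 and 14.2 FPKM, so that the groups lay well apart. The means were 8.96 ± 0.645 and 13.9 ± 0.709 FPKM (n = 5 each, SD), a log2 fold change of -0.63 (SE 0.06, 95% confidence interval -0.77 to -0.49, limma BH-adjusted p = 0.000388; exact permutation p = 0.00794). The gene overlaps Zyx on the opposite strand over 1727 bases. Zyx stood at 39.3 ± 3.44 and 45.7 ± 2.30 FPKM (n = 5 each, SD), with a log2 fold change of -0.22 (limma BH-adjusted p = 0.0868). Within the shared bases, reads of the pair can be told apart only if strand was used in counting, which the sources used here do not state. Alveolar type 1 genes summed to 1092 to 1479 FPKM in the IPF group and 1269 to 1436 in the sham group, and alveolar type 2 genes to 15705 to 17661 and 11700 to 18976, so both sums overlapped between the groups. Ager made up most of the first sum and Sftpc most of the second. The type 2 gene Sftpb was lower in every IPF library than in any sham library (log2 fold change -0.24, limma BH-adjusted p = 0.305). Limma called 0 of 5 genes of either list, with 2 type 1 genes and 1 type 2 gene at an unadjusted p under 0.05 and 1 of each list called with voom. The 2 type 1 genes, Pdpn and Aqp5, had lower estimates in the IPF group (log2 fold changes of -0.31 and -0.21). Of the other type 1 genes, Hopx and Rtkn2 had estimates of 0.06 and 0.08, and Ager of -0.06. The type 2 gene, Abca3, had a higher estimate in the IPF group (0.32), and Sftpc, Lamp3 and Slc34a2 had 0.07, 0.04 and -0.02. The secretory airway sum ranged from 4698 to 29561 FPKM in the IPF group and 13711 to 25706 in the sham group. Of its 5 genes, 1 was called lower (Cbr2, log2 fold change -0.87), and Scgb3a2 alone had a positive estimate (0.55). The part of these lists in the Epha1 difference was not tested.

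The other Eph receptors did not pass the limma test over all libraries. Ephb4, the receptor of veins, stood at 56.2 ± 3.82 and 54.3 ± 0.957 FPKM (n = 5 each, SD), with a log2 fold change of 0.05 and a 95% confidence interval from -0.07 to 0.17 (limma BH-adjusted p = 0.688). Ephb3 came close to the threshold, with 10.5, 9.92, 10.6, 9.36 and 6.72 FPKM in the IPF libraries and 6.32 to 7.39 FPKM in the sham libraries (log2 fold change 0.44, limma BH-adjusted p = 0.0526), and it passed with voom (0.0408), with array weights (0.00773) and among genes with a mean of at least 1 FPKM (0.0373). Again IPF library 5 lay inside the sham range and the other 4 above it. Epha4, named after its values were seen, was higher in every IPF library than in any sham library, at 3.74 to 5.74 and 2.95 to 3.72 FPKM (log2 fold change 0.42, limma BH-adjusted p = 0.0957). Epha2, an epithelial and endothelial receptor of Efna1, differed by -0.16 (limma BH-adjusted p = 0.418).

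None of the 8 ephrins was called (limma; 1 at an unadjusted p under 0.05, 0 with voom). Efnb2, the arterial ligand of Ephb4, was at 57.7 ± 9.60 and 58.2 ± 4.70 FPKM (n = 5 each, SD), a log2 fold change of -0.02 with a 95% confidence interval from -0.25 to 0.21 (limma BH-adjusted p = 0.935). Neither member of the arterial and venous pair passed the test. Efna1, a ligand that tumour necrosis factor induces in endothelium, stood at 53.1 ± 8.59 and 43.2 ± 3.18 FPKM (n = 5 each, SD; log2 fold change 0.28, limma BH-adjusted p = 0.160, or 0.0478 without IPF library 4).

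The Slit and Robo genes had no call by limma (0 of 5). An unadjusted limma p under 0.05 was found for 3 of the 5, beside 19.5% of all genes tested. Voom on the recovered reads called Robo1 and Robo2 lower, among 1466 calls over all genes. Robo1, a receptor of Slits on many cell types, was at 1.95, 1.58, 1.45, 1.99 and 1.84 FPKM in the IPF libraries and 3.20, 2.08, 2.27, 2.15 and 2.78 FPKM in the sham libraries, with no overlap (log2 fold change -0.47, SE 0.14, limma BH-adjusted p = 0.0782, voom 0.0261). Robo2, named after its values were seen, had a log2 fold change of -0.36 (3.25 ± 0.0930 and 4.23 ± 0.626 FPKM, n = 5 each, SD; limma BH-adjusted p = 0.0670). The endothelial Robo4 stood at 19.5 ± 1.12 and 19.1 ± 1.23 FPKM (n = 5 each, SD; log2 fold change 0.03, 95% confidence interval -0.10 to 0.17). The ligands Slit2 and Slit3 differed by -0.26 and -0.21 (limma BH-adjusted p = 0.172 and 0.356).

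Netrins and the Unc5 genes had no call by limma (0 of 8, with 2 at an unadjusted p under 0.05 and 2 with voom). Ntn4, a netrin of basement membranes, was at 40.9 ± 3.67 and 39.8 ± 3.46 FPKM (n = 5 each, SD), and Ntn1 at 22.5 ± 1.92 and 20.7 ± 0.912 FPKM, with log2 fold changes of 0.04 and 0.12 (limma BH-adjusted p = 0.840 and 0.336). Unc5b, the netrin receptor of arteries and tip cells, stood at 9.24, 9.39, 10.3, 9.47 and 5.84 FPKM in the IPF libraries and 5.26 to 6.78 FPKM in the sham libraries. Its log2 fold change was 0.51 (SE 0.14), with a limma BH-adjusted p of 0.0600 over all libraries, 0.00103 without IPF library 5 and 0.0425 with voom. Unc5a, named after its values were seen, was lower in every IPF library, at 1.17 to 1.51 against 1.63 to 2.46 FPKM (log2 fold change -0.46, limma BH-adjusted p = 0.0628), and voom called it lower.

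**Figure D4:**
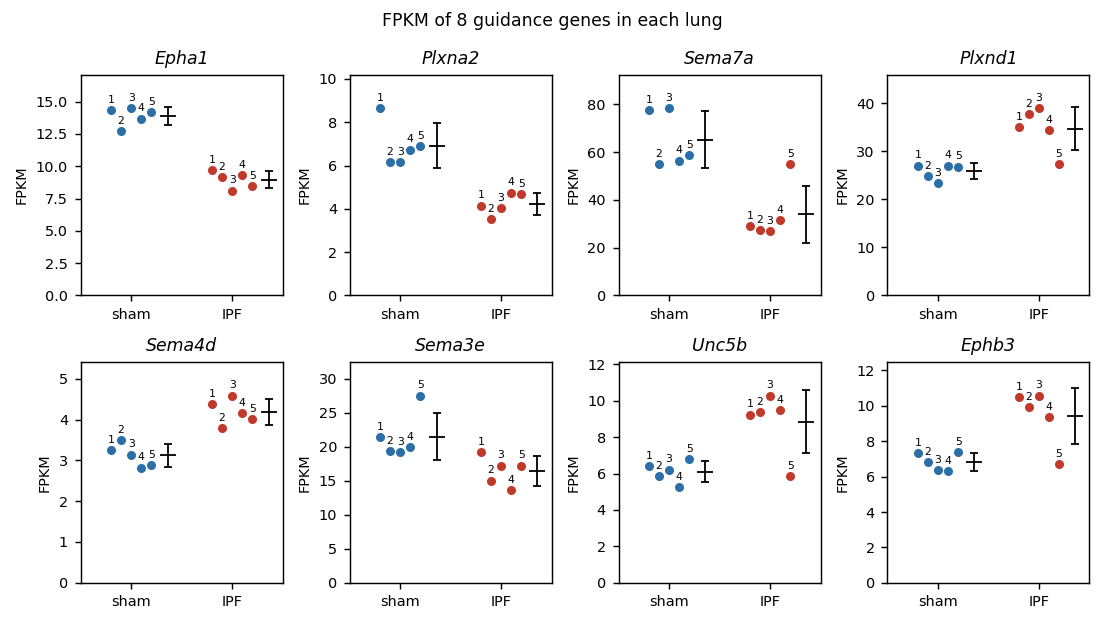
FPKM in each library of the 5 genes called and of Sema3e, Unc5b and Ephb3, IPF in red and sham in blue with the replicate number, n = 5 each, and the mean with its SD beside them, on axes that start at 0. In Sema7a, Unc5b and Ephb3 a single IPF library, number 5, lies among the sham libraries.

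IPF library 5 thus lay inside the sham range for Sema7a, Unc5b and Ephb3 and nearest to it for Plxnd1. Without it, 9 guidance genes were called in place of 5: the 5 above with Unc5b (limma BH-adjusted p = 0.00103), Ephb3 (0.00122), Epha4 and Sema5a. This library also differed from the other IPF libraries in lists outside the guidance genes. Its summed clock genes were 149.5 FPKM, between those of IPF libraries 1 to 4 (82.2 to 96.9) and the sham libraries (275 to 325). Its summed lymphatic genes (Prox1, Lyve1, Mmrn1, Reln and Flt4, none at 0, 0 of 5 called by limma, 1 unadjusted and 1 with voom) were 291 FPKM, with 136 to 201 in IPF libraries 1 to 4 and 242 to 280 in the sham libraries. Lyve1 alone was 273 FPKM of this sum, and without it the sums overlapped, with 18.3 FPKM in IPF library 5, 11.6 to 13.9 in the other IPF libraries and 12.7 to 18.5 in the sham libraries. Its summed neutrophil genes were 297 FPKM, with 14.6 to 72.7 in all other libraries. The part of these in the guidance values was not tested.

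**Figure D5:**
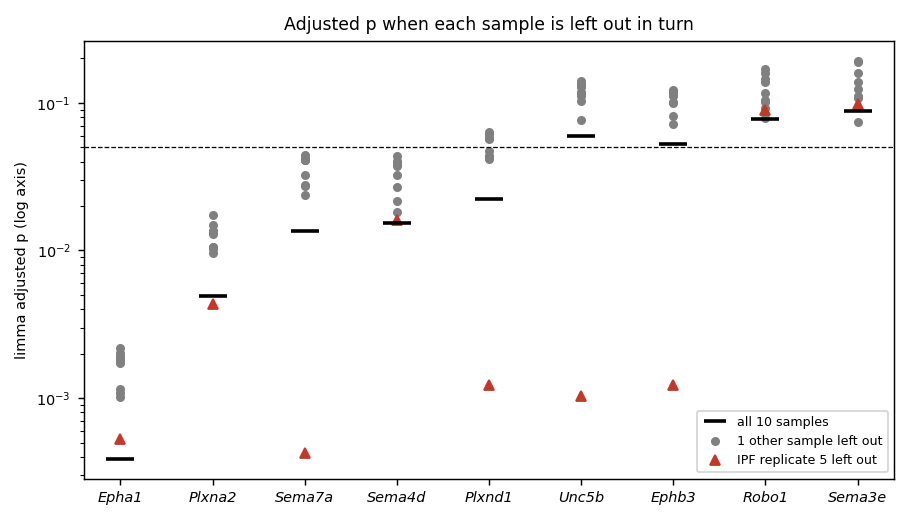
Limma adjusted p on a log axis for 9 guidance genes over all 10 libraries (bar), with 1 other library left out (grey points) and with IPF library 5 left out (red triangle), with the threshold of 0.05 dashed. Epha1, Plxna2, Sema7a and Sema4d stay below the threshold whichever library is left out, Plxnd1 crosses it, and among these fits Unc5b and Ephb3 pass only without IPF library 5.

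Co-receptors and signalling partners of the guidance genes were read from 4 lists of 77 genes, of which 69 could be tested. Limma called 7 higher and 1 lower (11.6%, beside 5.85% of all genes), with a median log2 fold change of 0.03. With single libraries left out the number called ranged from 4 (without IPF library 4) to 13 (without IPF library 5). Rnd1, a small GTPase that binds plexins, was at 6.55, 6.63, 4.22, 4.79 and 4.32 FPKM in the IPF libraries and 2.92, 3.16, 2.71, 2.19 and 3.38 FPKM in the sham libraries, without overlap (log2 fold change 0.85, SE 0.16, limma BH-adjusted p = 0.00999). Rnd3, of the same family, rose by 0.44 (limma BH-adjusted p = 0.0178). Ablim3, an actin-binding LIM protein, rose by 0.54, from 16.8 ± 0.952 to 24.6 ± 2.58 FPKM (n = 5 each, SD; limma BH-adjusted p = 0.00284). Vasp, which promotes actin filament growth, rose by 0.24, and Dapk1, a kinase linked to Unc5 receptors, by 0.36 (limma BH-adjusted p = 0.0372 and 0.0344). Cd72, a B-cell receptor of Sema4d, rose from 1.02 ± 0.105 to 1.60 ± 0.176 FPKM (n = 5 each, SD; log2 fold change 0.60, limma BH-adjusted p = 0.0120), beside the B-cell genes above. Gpc1, a surface proteoglycan that binds Slits, fell by 0.33 (limma BH-adjusted p = 0.0340). By list, the calls were 1 higher and 1 lower of 15 co-receptors and other ligands and 2 higher of 18 semaphorin and plexin effectors. Limma called none of 15 ephrin and Eph effectors and 4 higher of 21 Slit and netrin effectors. Of the 15 ephrin and Eph effectors, 9 had an unadjusted limma p under 0.05, beside 19.5% of all genes tested, and 1 was called with voom. The neuropilins Nrp1 and Nrp2 had log2 fold changes of 0.19 and 0.23 (limma BH-adjusted p = 0.318 and 0.195), and the netrin receptor Dcc had reads in only 1 of the 10 libraries.

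Several properties of the whole series bear on these values. Reads on genes numbered 16250190 to 19026843 in the IPF libraries and 15483046 to 17818542 in the sham libraries. Xist was at 26.8 to 43.2 FPKM in every IPF library and at most 0.08 in every sham library, and the Y-linked Ddx3y, Eif2s3y, Uty and Kdm5d were at 0 in every IPF library and present in every sham library. Operation and sex therefore cannot be told apart in any value given here, the X-linked Efnb1, Plxna3 and Plxnb3 included. Clock genes also separated the groups, with 3 higher and 8 lower of 12, and the hour of collection is not given in the sources used here. Sham library 1 had the lowest mean Spearman correlation with the others (0.957, with 0.963 to 0.968 for the rest), and IPF library 3 had the highest secretory airway sum. Alveolar type 2 genes were abundant in all 10 libraries of this lung tissue, 2 of 5 alveolar fibroblast genes were called higher (Pdgfra and Wnt2), and heart muscle genes summed to 87.8 FPKM in IPF library 4 and 74.9 in sham library 3 but at most 3.57 in the others.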

How the data were processed

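Whole-lung RNA was measured in 10 libraries, 5 per group. The methods name Fastp for trimming, HISAT2 for alignment and StringTie for quantification, whereas the sample records name Bowtie 0.12.2. The authors deposited FPKM for each gene with its length and position. The methods name GRCm39, but the positions fit GRCm38, since genes on chromosome 1 reach 195323493. FPKM times gene length gave whole reads for 100% of values (tolerance 0.1), which set the depth. The sources name different library kits, KAPA mRNA HyperPrep in the methods and NEBNext Ultra in the sample records.

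Genes with a mean of at least 0.1 FPKM were tested with limma 3.58.1 (R 4.3.3) on log2(FPKM + 0.1), with trended variances, no covariate and Benjamini-Hochberg adjustment over 20448 genes. On this scale the change of low genes is understated. The authors used DESeq2, which needs counts. Exact permutation tests were two-sided. Tables were made with Python 3.11.15. The test was checked on simulated data. Alternatives were quantile normalization, median-of-ratios scaling, a mean of at least 1 FPKM or no filter, pseudocounts of 0.01 and 1, a replicate block, no trend, array weights, voom on recovered reads and leaving out each library. Leaving out 3 libraries together was chosen after seeing the data.

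Named genes (29) are every guidance gene called, 24 vascular ones, the most abundant of each family, and the 3 largest positive and negative changes at a mean of at least 1 FPKM. Partners were named where called, except for 1 that is not reported here. The members and lists were chosen with earlier results of these data known. Of 24 marker lists (120 genes), those with a called gene and some others are given.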

Additional observations from a re-analysis of the deposited data

Results flagged for a closer look

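In 5 of 58 groups of 5 libraries, a single library lay far from the others by Dixon's test, where chance gives about 1 in 20. Sema7a stood at 55.05 FPKM in IPF library 5, with 27.02 to 31.48 FPKM in the other IPF libraries. Unc5b stood at 5.844 FPKM in the same library, with 9.237 to 10.29 in the others. Sema4c stood at 11.05 FPKM in IPF library 5, above 9.466 to 9.901 in the others. Sema3g was at 65.58 FPKM in IPF library 2, below 75.11 to 76.96 in the others. Sema3e was at 27.56 FPKM in sham library 5, above 19.20 to 21.48 in the others.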

How the results depend on the processing

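Epha1, Plxna2 and Sema7a were called lower under all 21 alternatives, and Sema4d was called higher under all but the one without the 3 libraries that stood apart. The guidance genes called higher numbered 2, and 4 at a mean of at least 1 FPKM, 1 after quantile normalization, 1 without a variance trend, 6 with array weights, 4 with voom on recovered reads and 4 without the 3 libraries, Ephb3 and Unc5b being among them each time there were 4 or more. Those called lower numbered 3, and 9 with voom, 4 at a mean of at least 1 FPKM (Robo2 added) and 4 without the 3 libraries (Sema5a added). Past both limits there were 0, and 1 after quantile normalization or without the 3 libraries. The partners called numbered 8, and 5 with no filter, 6 without a variance trend, 7 without the 3 libraries, 10 at a mean of at least 1 FPKM, 11 with voom and 12 with array weights. With each library left out in turn, 1 to 5 were called higher, 3 to 4 lower, 0 to 1 past both limits, 4 to 13 partners and 748 to 1619 of all genes (1196 with all libraries). The lowest of these were without IPF library 4 for partners and all genes, and the highest without IPF library 5. Voom called 1466 of all genes and array weights 1749. Same-numbered libraries deviated from their group means largely on their own (correlations of 0.0953, 0.0388, 0.029, -0.0204 and 0.0665), although 6 of 10 correlated best with their own number in the other group. With the number as a replicate block, 1 guidance gene was called higher, Plxnd1 losing its call, and 1045 of all genes. Estimates near 0 changed sign: Ntn4 to -0.019 and Plxna1 to -0.0072 after quantile normalization, and over the libraries left out Ntn4 ranged from -0.0028 to 0.0857, Plxna1 from -0.0060 to 0.107 and Efnb2 from -0.114 to 0.0235. Sema5b was -0.40 without the 3 libraries. The cause of these changes was not tested. Of 609 values of the named genes under the alternatives, 578 kept their direction and side of the threshold. No scaling moved the median of all genes by 0.1 (log2). Depth limits the genes below 1 FPKM, such as Plxnb3 with 3 to 25 reads.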
